A study of Homo sapiens with 54 samples.

Results

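The 45 genes described here encode the actins of a breast cancer cell line, the proteins that bind, branch, cap, bundle and pull on actin filaments, and serum response factor (SRF), the transcription factor best known for driving many of them. They were taken by name, with earlier results of these data known, and all 45 were found among the 27978 genes of the count table. By role they are 3 actins, 5 proteins that bind actin monomers, 9 subunits of the Arp2/3 complex or of capping protein, 6 myosin chains, 4 tropomyosins, 6 members of the calponin, transgelin and caldesmon group, 11 crosslinking, adhesion and LIM-domain proteins, and SRF itself. RNA-seq was run on 54 libraries of MDA-MB-231, a mesenchymal-like line derived from a triple-negative breast tumour, in 18 groups of 3 biological replicates, so every value below comes from 1 line in culture. Cells were left untreated (UT) or received Compound Kushen Injection (CKI), an injectable extract of medicinal plants, at 2 mg/ml, or a mixture rebuilt from CKI fractions at the equivalent of that dose. In batch 1, with 24 and 48 h of treatment, the mixtures were N_2, which is CKI without oxymatrine and oxysophocarpine, N_3, which in addition lacked macrozamin, OO, which held oxymatrine and oxysophocarpine alone, and MOO, which held macrozamin with that pair. In batch 2, with 48 h only, they were N_Mac, N_Nme, N_Omt and N_Tri, each of which was CKI short of 1 compound (macrozamin, N-methylcytisine, oxymatrine or trifolirhizin). UT and CKI were present in both batches, and each treated group was compared with the UT libraries of its own time and batch.

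Actin cycles between monomers and filaments. Profilin and thymosin bind the monomers, cofilin severs old filaments, the Arp2/3 complex starts branches from existing filaments, and capping protein stops their growth, which together drive the lamellipodia with which cells crawl. Non-muscle myosin pulls on filaments dressed with tropomyosin, caldesmon and calponin, and alpha-actinin, talin, vinculin and zyxin tie the bundles to adhesions. When actin polymerises, the monomers that hold the coactivators MKL1 and MKL2 in the cytoplasm are used up, the coactivators enter the nucleus, and SRF switches on genes for actin and its partners through a short element called the CArG box.

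CArG boxes are shown first because they are the sequence feature by which SRF reaches its target genes. A perfect box, a pair of C, a run of A or T and a pair of G, reads the same on either strand. It was searched for in the 250 bases upstream of each start site in the RefSeq promoters (assembly GRCh38.p14, which is not the hg19 build of the counts). The table held 40 of the 45 members, and ACTB, ARPC1B, MYL9, PFN2 and TAGLN had no entry. A box was found for 7 of those 40 (17.5%), ACTG1, ACTN1, CNN2, FHL1, FHL2, SRF and TPM4, against 394 of 27305 genes in the table (1.44%). A gene was counted if any of its promoters held a box. Counted per promoter, a box was in 9 of 79 for the members, against 407 of 35116 (1.16%) in the table. The same FHL2 box, 101 and 85 bases before neighbouring start sites, was counted under each. The members were chosen by name around actin and SRF, with known SRF targets among them, so their higher share is no test of the list. The 4 windows below, read 5′ to 3′ along the gene's strand with the boxes in capitals, belong to an actin, a calponin, the member that rose in most comparisons, and SRF. They lie at chr17:81512854-81512923 (minus strand), chr19:1026489-1026558 (plus), chrX:136196891-136196960 (plus) and chr6:43171209-43171268 (plus), and their boxes begin 94, 89, 126 and, for the pair in SRF, 30 and 10 bases before the start site.
ACTG1: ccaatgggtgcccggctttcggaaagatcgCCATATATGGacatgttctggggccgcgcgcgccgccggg
CNN2: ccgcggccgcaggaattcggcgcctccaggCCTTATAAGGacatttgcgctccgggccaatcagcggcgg
FHL1: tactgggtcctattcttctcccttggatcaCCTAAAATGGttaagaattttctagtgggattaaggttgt
SRF: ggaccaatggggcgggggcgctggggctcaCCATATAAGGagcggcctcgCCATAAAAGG
The 7 genes with a box did not all move the same way. ACTG1 fell in all 15 comparisons with UT, and ACTN1, CNN2 and SRF were called in 11, 10 and 5 of them, always lower. FHL1 did not fall in any of them. TPM4 (2 higher, 8 lower) and FHL2 (3 higher, 2 lower) were called in both directions. A match is a description of letters and not evidence of binding.

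Library totals were 17673537 to 26138924 counts (median 22568666.5). Of 5 genes known to be high in this line, VIM was at 488 to 1570 CPM (a gene's counts scaled to a common library size) over the 54 libraries, CD44 at 328 to 669, EGFR at 66.8 to 479, AXL at 270 to 1330 and CAV1 at 76.6 to 782. Of 5 known to be low, the hormone receptor genes ESR1 and PGR held no more than 8 and 2 counts, CDH1 was at 0.0489 to 7.19 CPM, EPCAM at 6.19 to 27.6 and ERBB2 at 32.2 to 113. Both lists moved with treatment. With CKI at 48 h over both batches 2 of the first 5 were higher and 3 lower, and the 3 tested of the others were all lower. Because ACTA2, TAGLN and CNN1 also mark smooth muscle, 6 further smooth-muscle genes were followed, and their summed level was 1.05 to 4.29 CPM, with MYOCD at 0 in 53 libraries. The 7 fibroblast markers summed to 14.5 to 100 CPM, from 14.5 to 23.2 in N_Nme to 67.0 to 100 in N_2 at 24 h, with COL1A1 at 8.87 to 65.2 CPM and DCN at 0 in 38 libraries. With CKI at 48 h over both batches 4 of the 6 of them tested were higher and 1 lower. What part these 4 marker lists have in the results below was not tested. Of 54 libraries, 49 were nearest in expression to the mean of their own group, and the 5 exceptions were all from 24 h: CKI replicate 1, N_3 replicate 2, OO replicates 1 and 2, and MOO replicate 3. For the last of these the nearest group was OO, and for OO replicate 1 it was MOO. CKI replicate 1, N_3 replicate 2 and OO replicate 2 are also the libraries whose names lack the running number that the others have. N_2 replicate 3 at 24 h kept its group but lay far from its partners (root mean square log2 distance 0.436, against a median of 0.113 over the 45 libraries of the 15 groups without such names). Counts of members that passed the test at 24 h are also given without the 3 libraries that lack a number or without all 5. Levels are CPM scaled by TMM, so they are shares of the RNA sampled, and less RNA per cell of one kind cannot be told apart from fewer cells that hold it.

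Compared with UT, the members fell far more often than they rose after 48 h, in every treatment. A gene was called differentially expressed (DE) when the edgeR quasi-likelihood test gave a p under 0.05 after Benjamini-Hochberg adjustment across the table. With CKI for 48 h, 34 of 45 members were DE in batch 1, 3 higher and 31 lower, where the test called 54.0% of all genes, 27.0% higher and 27.0% lower. In batch 2 they were 35, 4 higher and 31 lower, where it called 66.4% of all genes, 32.3% higher and 34.2% lower. The median log2 fold change of the members was -0.37 and -0.36 in the 2 batches, against 0.0080 and -0.0073 over all genes. Of the members 68.9% were called lower in each batch. In a fit of both batches together, 36 of the 44 members tested were DE, 3 higher and 33 lower, where the test called 71.5% of all genes, 35.7% higher and 35.8% lower. CNN1 was too low to enter that fit. Without TMM scaling that split became 7 higher and 31 lower. All comparisons of 1 time and batch use the same 3 UT libraries, so their counts are not independent of each other.

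All 8 mixtures lowered most of the members at 48 h, and 7 of the 8 changed more members than CKI of the same batch did. In all but MOO the share of all genes called was also above that with CKI (54.0% in batch 1, 66.4% in batch 2). With 1 library left out, the counts of members were 32 to 35 for CKI in batch 1, 34 to 35 for OO and 33 to 36 for MOO. In batch 1, N_2 changed 39 (2 higher, 37 lower), where the test called 76.6% of all genes, 38.3% higher and 38.3% lower, with a members' median of -0.65. N_3 changed 29 (2 higher, 27 lower), or 64.4% of members, a smaller share than over all genes (71.1% of all genes, 35.8% higher and 35.3% lower). OO changed 36 (6 higher, 30 lower) and 57.8% of all genes, 29.1% higher and 28.7% lower. MOO also changed 36 (7 higher, 29 lower) and 51.2% of all genes, 25.7% higher and 25.5% lower. In batch 2 each single removal changed 39 members. These were 8 higher and 31 lower in N_Mac (72.4% of all genes, 36.9% higher and 35.4% lower) and in N_Nme (71.3% of all genes, 35.9% higher and 35.4% lower). They were 7 higher and 32 lower in N_Omt (78.2% of all genes, 38.4% higher and 39.9% lower), and 8 higher and 31 lower in N_Tri (72.2% of all genes, 34.8% higher and 37.4% lower). Members called lower made up 60.0 to 82.2% of the 45 across these 8 mixtures, against 25.5 to 39.9% for all genes.

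At 24 h fewer members passed the test. CKI changed 20 (3 higher, 17 lower), where the test called 30.0% of all genes, 15.3% higher and 14.8% lower. The count was 19 without the 3 libraries that lack a running number (32.7% of all genes), and 13 when CKI replicate 1 alone was left out. N_2 changed 23 (7 higher, 16 lower), or 51.1% of members, below the share over all genes (62.1% of all genes, 31.1% higher and 30.9% lower). It changed 29 (10 higher, 19 lower) without the 3 libraries that lack a number, again below the share over all genes (68.5%). The split was 4 higher and 23 lower without TMM scaling, which moved the median of all genes in that comparison by -0.31. Without N_2 replicate 3 it was 12 higher and 14 lower, and the members' median went from -0.19 to -0.11. N_3 changed 28 (2 higher, 26 lower) and 45.0% of all genes, 23.2% higher and 21.8% lower. OO changed 10 (3 higher, 7 lower) and 16.7% of all genes, 9.03% higher and 7.72% lower. Without the 3 libraries that lack a number N_3 changed 28 (1 higher, 27 lower) and 54.2% of all genes. OO then changed 12 (4 higher, 8 lower) and 22.3% of all genes. MOO changed 4 (2 higher, 2 lower) and 10.5% of all genes, 5.61% higher and 4.84% lower, a count that went to 13 without the 3 libraries that lack a number, where the share of all genes also went up, to 20.2%. It went to 2, with 7.11% of all genes, without OO replicate 1 and MOO replicate 3. It was also 2 without any 1 of MOO replicates 2 and 3 and UT replicates 1 and 2. The fit at 24 h shares 1 estimate of the spread, and its common biological coefficient of variation was 0.175, against 0.0763 at 48 h in batch 1 and 0.0480 in batch 2.

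**Figure D1:**
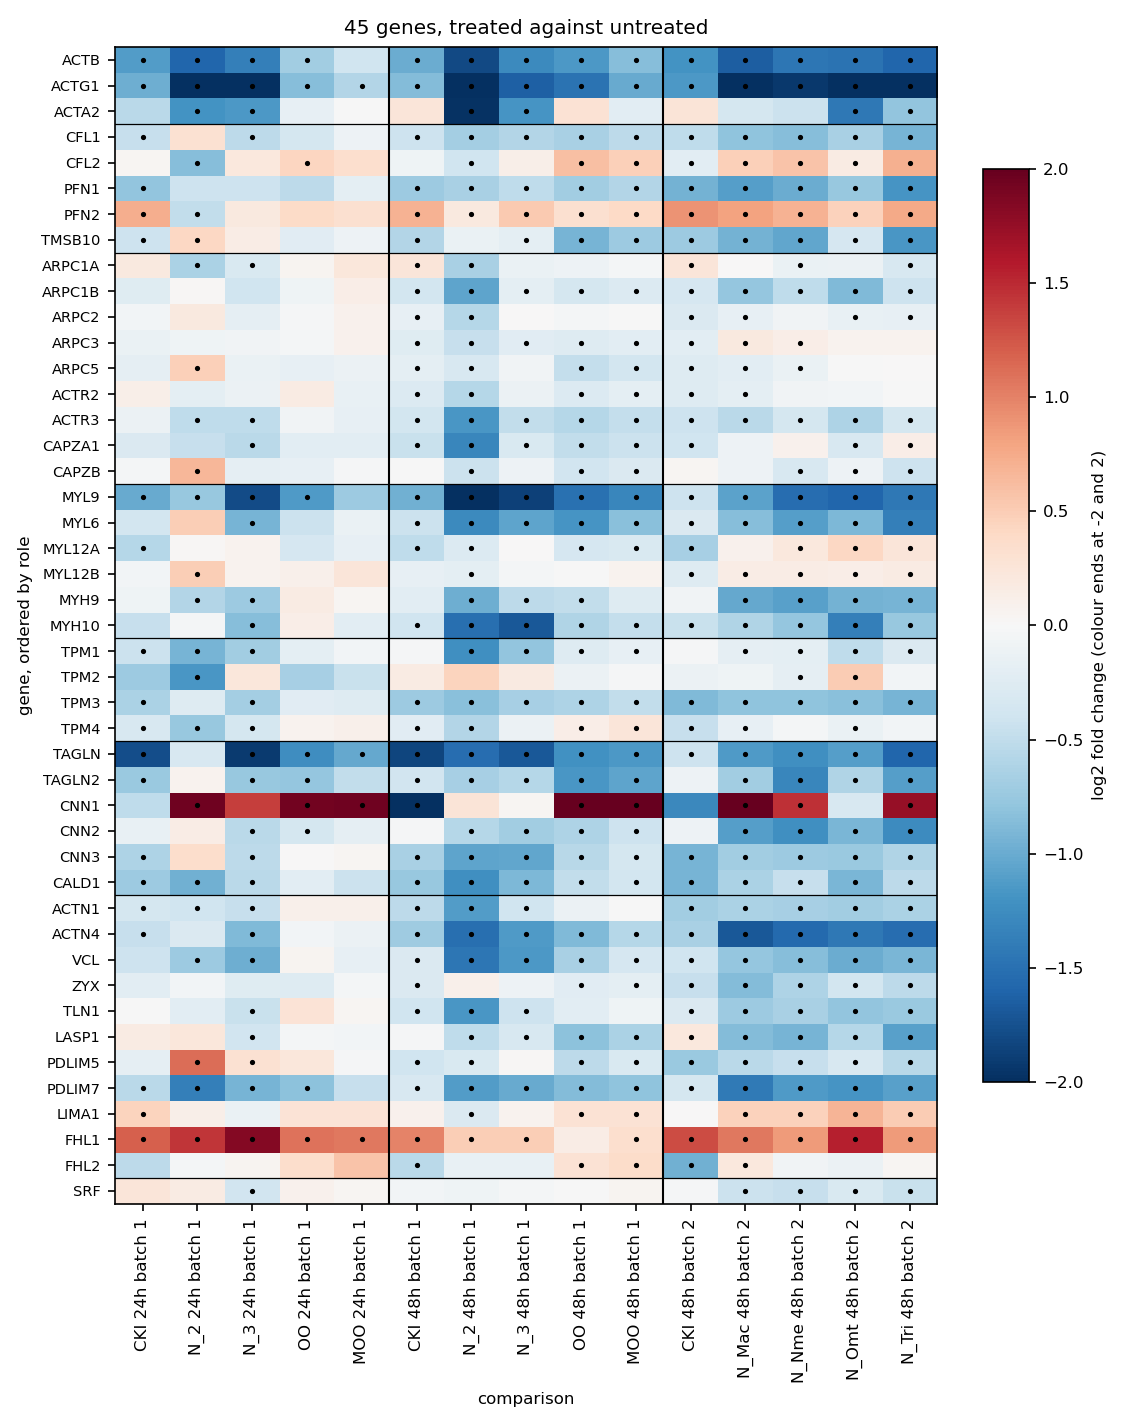
Log2 fold change of each of the 45 members (rows, by role) against untreated cells of the same time and batch, for the 15 treated groups (columns); colour runs from -2 to 2 and a dot marks an adjusted p under 0.05. ACTB, ACTG1, MYL9 and TAGLN are on the falling side in every column and FHL1 on the rising side.

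The cytoplasmic actins, the most abundant members with TMSB10, fell with CKI and with the mixtures. ACTB and ACTG1 encode beta- and gamma-actin, nearly identical proteins with similar coding sequences, so part of the reads of each could have been assigned to the other. ACTB, the member with the highest level per kilobase of exon in UT cells at 24 h (3830 ± 145 CPM per kb, SD, n = 3), stood at 7790, 7795 and 7293 CPM in UT at 24 h and at 2945, 3663 and 3931 CPM with CKI. At 48 h it was 5814, 6160 and 6291 CPM in UT and 3098, 2986 and 3063 with CKI in batch 1, and 5286, 5506 and 4895 against 2288, 2281 and 2271 in batch 2. All treated libraries of each group, whichever the mixture, lay below the 3 UT libraries of their time and batch. The CKI effect on ACTB was -1.12 (SE 0.15, adjusted p = 3.46e-05) on the log2 scale at 24 h and -1.08 (SE 0.043, adjusted p = 6.32e-13) at 48 h over both batches. The mixtures ranged from -1.58 to -0.40 at 24 h and from -1.81 to -0.85 at 48 h in batch 1, and the single removals from -1.65 to -1.45 in batch 2. The 24 h value of MOO, -0.40 (adjusted p = 0.0872), was the one that did not pass.

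ACTG1 fell in all 15 comparisons. Its UT libraries held 4822, 4822 and 4602 CPM at 24 h, 3817, 4028 and 4248 at 48 h in batch 1 and 2890, 2990 and 2635 in batch 2, and its CKI libraries 1901, 2617 and 2741, 2234, 2201 and 2204, and 1311, 1247 and 1265. CKI replicate 1 is the lowest of the 24 h set. The CKI changes were -0.97 (SE 0.15, adjusted p = 0.000166) at 24 h and -1.0 (SE 0.051, adjusted p = 1.7e-11) at 48 h. N_2 took ACTG1 to 935, 911 and 684 CPM at 24 h and 759.5, 733 and 779 at 48 h, changes of -2.47 (SE 0.16, adjusted p = 2.99e-09) and -2.41 (SE 0.069, adjusted p = 2.69e-18). In batch 2 N_Mac reached the lowest ACTG1 level of all 18 groups, 550.1, 532 and 496 CPM, or -2.42 (SE 0.056, adjusted p = 1.63e-26), and N_Omt, N_Tri and N_Nme reached -2.30, -2.16 and -1.93. Together the 3 actins took 0.808% ± 0.056 (SD, n = 3) of all counts in UT cells of batch 2 and 0.231% ± 0.0099 in N_Mac. In UT cells of batch 1 they took 1.2% ± 0.019 at 24 h and 0.992% ± 0.031 at 48 h.

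**Figure D2:**
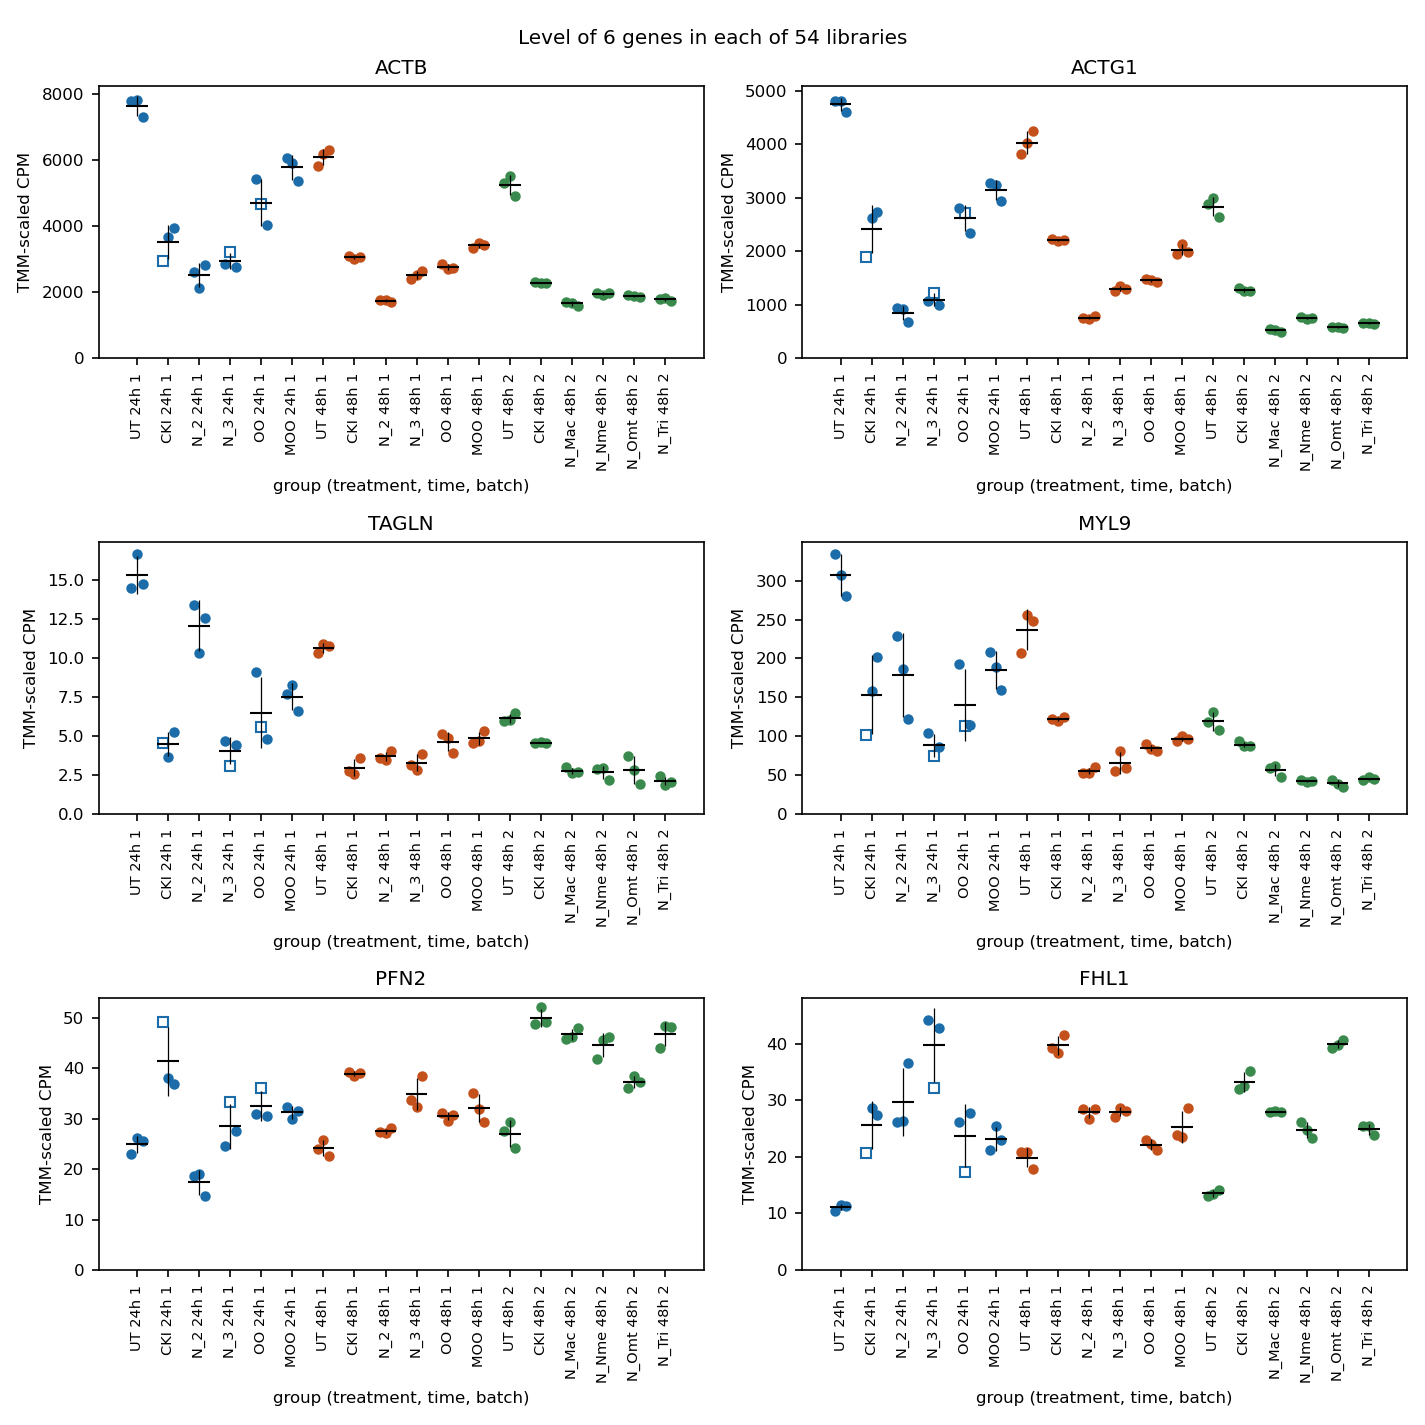
CPM (TMM-scaled) of ACTB, ACTG1, TAGLN, MYL9, PFN2 and FHL1 in each of the 54 libraries by group; each point is 1 library, open squares are the 3 libraries that lack a running number, the bar is the group mean and the vertical line the SD. The actin, TAGLN and MYL9 points of treated groups lie mostly below untreated, and the FHL1 points mostly above.

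ACTA2, the smooth-muscle actin that also marks contractile fibroblasts, was near the floor of the assay, at 0.326 to 2.62 CPM over all 54 libraries. In UT it was 1.80, 1.89 and 2.17 CPM at 24 h, 1.79, 2.10 and 1.76 at 48 h in batch 1 and 1.96, 1.91 and 1.66 in batch 2, and with CKI 1.48, 1.19 and 1.35, 2.24, 2.62 and 1.79, and 2.59, 2.02 and 2.02. It passed the test in neither CKI comparison, with -0.54 at 24 h (adjusted p = 0.1) and 0.26 at 48 h over both batches (adjusted p = 0.0852). N_2 lowered it to 0.485, 0.326 and 0.626 CPM at 48 h, or -1.98 (SE 0.29, adjusted p = 1.66e-06). N_3 changed it by -1.17 (SE 0.26, adjusted p = 0.000384), and in batch 2 N_Omt and N_Tri changed it by -1.43 and -0.79. N_Mac (-0.35, adjusted p = 0.122) and N_Nme (-0.43, adjusted p = 0.0617) did not pass.

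Among the monomer binders the paralogs moved apart. Profilin hands ATP-actin to growing filament ends, and PFN1, the abundant profilin, fell while PFN2, the scarce one, rose. PFN1 was 2675, 2477 and 2230 CPM in UT and 1190, 1399 and 1666 with CKI at 24 h, 1727, 1989 and 1975 against 1183, 1147 and 1097 at 48 h in batch 1, and 1632, 1577 and 1605 against 836, 829.5 and 834 in batch 2. PFN2 was 23.1, 26.2 and 25.6 CPM in UT and 49.2, 38.0 and 36.8 with CKI at 24 h, 24.0, 25.7 and 22.7 against 39.3, 38.4 and 38.9 at 48 h in batch 1, and 27.6, 29.3 and 24.1 against 48.7, 52.0 and 49.2 in batch 2. At 48 h the treated libraries of all 10 groups were below UT for PFN1 and above UT for PFN2. With CKI the changes at 48 h over both batches were -0.82 (SE 0.045, adjusted p = 3.84e-11) for PFN1 and 0.80 (SE 0.058, adjusted p = 1.21e-09) for PFN2. In the mixtures at 48 h they were -1.18 to -0.50 and 0.19 to 0.80. N_2 at 24 h was the exception for PFN2, which fell by 0.50 (SE 0.15, adjusted p = 0.00785) on the log2 scale. The rise of PFN2 with N_2 at 48 h, 0.19, was lost in 7 of 13 alternative settings.

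Cofilin showed the same kind of split. CFL1, the main cofilin, was lower in every 48 h group (-0.92 to -0.42), and CFL2, the muscle form, was higher with OO and MOO at 48 h (0.60 and 0.47) and in the 4 single removals (0.17 to 0.72) but slightly lower with CKI over both batches (-0.14, SE 0.038, adjusted p = 0.00284). N_Tri gave the highest CFL2 level, 207, 224 and 212 CPM against 127, 123 and 134 in UT. TMSB10, a thymosin that sequesters monomers and the member with the second highest level per kilobase in UT at 24 h, fell in 9 of the 10 groups at 48 h, from -1.16 to -0.20. In N_2 at 48 h its change was -0.14 (adjusted p = 0.151), and in N_2 at 24 h it rose by 0.42 (SE 0.14, adjusted p = 0.0143). The size of that rise depends on scaling. TMM factors of the N_2 libraries at 24 h were 0.775, 0.777 and 0.842. With library sizes alone the median of all genes in that comparison was -0.31.

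None of the 9 branching and capping genes was DE at 24 h with CKI, OO or MOO, and their CKI changes there were -0.29 to 0.20. At 48 h in batch 1 CKI lowered 7 of the 9 and raised 1, and N_2 lowered all 9, with a median of -0.56, where 27.0% and 38.3% of all genes were lower. ACTR3, which forms the nucleus of the branch, and ARPC1B fell in every 48 h group, by up to 1.16 and 1.06 in N_2. The exception with CKI was ARPC1A, the alternative isoform of the same subunit. It was 136, 146 and 143 CPM in UT and 178, 164 and 162 with CKI in batch 1, 161, 154 and 159.6 and 180.1, 193 and 189 in batch 2, and rose by 0.26 (SE 0.036, adjusted p = 5.52e-06) over both batches. N_2 instead lowered ARPC1A to 89.0, 94.7 and 86.8 CPM, or -0.65 (SE 0.069, adjusted p = 1.61e-08). In batch 2 ARPC3 rose by 0.20 with N_Mac and 0.13 with N_Nme, the latter lost in 6 of 13 settings, and the capping protein gene CAPZA1, which all 5 treatments of batch 1 had lowered at 48 h (-1.30 to -0.30), rose by 0.14 (SE 0.048, adjusted p = 0.0121) with N_Tri. Of the remaining Arp2/3 subunits at 48 h ARPC2 lay between -0.56 to 0.0033, ARPC5 between -0.47 to 0.011 and ACTR2 between -0.56 to -0.0066, each lower in 6 or 7 of the 10 groups and higher in none. CAPZB, the other capping subunit, did not pass with CKI and was lower in 6 of the 10, while N_2 at 24 h raised it by 0.67 (SE 0.12, adjusted p = 0.000122) and ARPC5 by 0.47 (SE 0.10, adjusted p = 0.000727). The size of these N_2 rises depends on scaling, since with library sizes alone the median of all genes there was -0.31.

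Among the myosins MYL9, the regulatory light chain that SRF targets and contractile cells share, was called lower in 14 of the 15 comparisons with UT. The MOO value at 24 h, -0.73 (adjusted p = 0.0826), did not pass with all libraries and did so without the 3 that lack a number (adjusted p = 0.0274). MYL9 was 335, 307 and 281 CPM in UT and 101, 158 and 202 with CKI at 24 h, 207, 256 and 248 against 122, 119 and 124 at 48 h in batch 1, and 119, 131 and 107 against 93.4, 87.3 and 87.0 in batch 2. At 48 h all treated libraries lay below UT. CKI lowered it by 1.0 (SE 0.26, adjusted p = 0.00775) at 24 h, by 0.96 (SE 0.10, adjusted p = 6.84e-08) at 48 h in batch 1 and by 0.41 (SE 0.074, adjusted p = 1.28e-05) in batch 2, on the log2 scale. The values at 48 h in batch 1 were lower still with N_2 (-2.10), N_3 (-1.86), OO (-1.49) and MOO (-1.30), and in batch 2 they were -1.59 to -1.07 with the single removals.

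The other light and heavy chains did not follow MYL9 as a block. MYL6, the essential light chain, fell in every 48 h group (-1.37 to -0.28). MYL12A and MYL12B, near-identical regulatory light chains between which reads could be shared, went the other way in batch 2: MYL12B rose in the 4 single removals by 0.13 to 0.16, and MYL12A by 0.20 to 0.41 in N_Nme, N_Omt and N_Tri, whereas CKI lowered MYL12A by 0.67 (SE 0.043, adjusted p = 1.1e-14). Non-muscle myosin heavy chain MYH9 was 1817, 1747 and 1680 CPM in batch 2 UT, 1696, 1615 and 1670 with CKI (-0.071, adjusted p = 0.239), and 791 to 965 over the 12 libraries of single removals, a change of -1.09 to -0.93. MYH10, its less abundant paralog, fell in every 48 h group by 0.39 to 1.69 on the log2 scale, with N_2 and N_3 giving -1.50 and -1.69.

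Tropomyosins coat filaments and govern which myosins may walk on them. TPM3 fell in every 48 h group, from -0.93 to -0.49. Its CKI change over both batches was -0.80 (SE 0.037, adjusted p = 4.08e-12). TPM1 fell most with N_2, at 29.4, 34.5 and 32.4 CPM against 73.2, 76.7 and 74.8 in UT, or -1.22 (SE 0.065, adjusted p = 9.77e-14), and CKI at 48 h left it at -0.017 (adjusted p = 0.699). TPM4 was the tropomyosin with opposite calls: -0.23 with CKI and -0.59 with N_2, but 0.14 with OO (adjusted p = 0.0464) and 0.24 with MOO (adjusted p = 0.00133) at 48 h. The OO call was lost in 9 of 13 settings. TPM2 passed in 3 comparisons, N_2 at 24 h (-1.17), N_Nme (-0.18, lost in 6 of 13 settings) and N_Omt (0.51).

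Transgelin, calponin and caldesmon bind along filaments and are textbook SRF targets. TAGLN gave the largest fold change of any member with CKI at 24 h. It was 14.5, 16.7 and 14.8 CPM in UT and 4.54, 3.69 and 5.25 with CKI, or -1.77 (SE 0.22, adjusted p = 2.53e-05). At 48 h it was 10.3, 10.9 and 10.8 against 2.79, 2.59 and 3.58 CPM in batch 1 and 5.96, 6.03 and 6.49 against 4.59, 4.63 and 4.55 in batch 2, or -1.12 (SE 0.19, adjusted p = 5.27e-05) over both. Every treated library of every group was below UT for TAGLN. N_2 at 24 h, at 13.4, 10.3 and 12.6 CPM, was the nearest to UT, and its change of -0.32 (adjusted p = 0.202) did not pass. TAGLN2, a far more abundant relative, fell in every 48 h group except CKI in batch 2 (-0.11, adjusted p = 0.162), with the single removals at -1.30 to -0.59.

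CALD1, caldesmon, which restrains myosin on the filament, was 159.9, 143 and 138 CPM in UT and 86.4, 85.4 and 88.0 with CKI at 48 h in batch 1, 178, 179 and 183 and 91.1, 96.1 and 96.4 in batch 2, and fell by 0.83 (SE 0.042, adjusted p = 1.47e-11) over both. CNN3 fell in every 48 h group (-1.06 to -0.36). CNN2 was at -0.052 (adjusted p = 0.22) with CKI over both batches, and fell by 0.91 to 1.26 on the log2 scale in the single removals. CNN1, the calponin of smooth muscle, held 0 to 46 counts per library. Summed over 3 libraries at 48 h it had 23 counts in UT, 3 with CKI, 117 with OO and 103 with MOO in batch 1. The fitted CKI change was -2.92 (SE 0.73, adjusted p = 0.00184). The ratio to UT was 0.125 with CKI (exact 95% interval 0.024 to 0.414), 5.27 with OO (3.35 to 8.64) and 4.59 with MOO (2.90 to 7.57), where the intervals cover counting error only. In batch 2 the sums were 19 in UT, 7 with CKI, 92 with N_Mac, 59 with N_Tri, 52 with N_Nme and 14 with N_Omt, so that CNN1 rose with 3 of the 4 single removals, N_Mac giving 2.35 (SE 0.38, adjusted p = 2.09e-06). MYOCD, the smooth-muscle coactivator of SRF, had 1 count in 1 of the 54 libraries.

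Of the 11 crosslinking, adhesion and LIM-domain genes, CKI lowered 8 in each batch at 48 h, where 27.0% and 34.2% of all genes were lower. ACTN4, an alpha-actinin that bundles filaments, fell in every 48 h group, and by 1.43 to 1.70 on the log2 scale in the single removals, where it was 429 to 571 CPM against 1536, 1484 and 1445 in UT. ACTN1, its paralog, fell by 0.63 to 0.70 on the log2 scale across the 5 treatments of batch 2, and in batch 1 it did not pass with OO (-0.12, adjusted p = 0.235) or MOO (-0.0033, adjusted p = 0.98). Vinculin (VCL), which reinforces loaded adhesions, fell in every 48 h group (-1.44 to -0.29). Talin (TLN1) and zyxin (ZYX) fell in all 5 groups of batch 2 (-0.79 to -0.29 and -0.87 to -0.37). The LIM-domain gene PDLIM7 was called lower in 14 of the 15 comparisons and stood at 46.1 to 49.9 CPM in N_Mac against 133, 138 and 119 in UT. MOO at 24 h gave -0.46 for it (adjusted p = 0.116), which passed without the 3 libraries that lack a number (adjusted p = 0.0439). LASP1, a scaffold at adhesions and leading edges, was 797, 828 and 722 CPM in batch 2 UT and 898, 904 and 903 with CKI (0.21, adjusted p = 0.000791), but 371 to 552 in the single removals. PDLIM5, which anchors kinases to alpha-actinin, fell in 9 of the 10 groups at 48 h (-0.74 to -0.31), N_3 excepted, and rose with N_2 at 24 h (1.11, SE 0.12, adjusted p = 6.47e-07).

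FHL1, a LIM-domain protein best known from muscle, was the member that rose in most comparisons. Its UT libraries held 10.5, 11.6 and 11.3 CPM at 24 h, 20.9, 20.8 and 17.9 at 48 h in batch 1 and 13.1, 13.4 and 14.2 in batch 2. With CKI it was 20.7, 28.6 and 27.5, then 39.2, 38.4 and 41.6, and 31.9, 32.6 and 35.2 CPM. All treated libraries of all 15 groups were above the UT libraries of their time and batch. CKI raised it by 1.2 (SE 0.19, adjusted p = 0.000209) at 24 h and by 1.15 (SE 0.065, adjusted p = 5.45e-11) at 48 h over both batches. N_3 at 24 h gave the largest rise, 1.84 (SE 0.19, adjusted p = 2.02e-06), and OO at 48 h, 0.14 (adjusted p = 0.146), did not pass. FHL2, a relative that binds SRF, passed in 5 of the 15 comparisons, lower with CKI at 48 h in both batches (-0.55 and -0.97), and higher with OO, MOO and N_Mac at 48 h (0.29, 0.37 and 0.21). LIMA1, a filament stabiliser, was 115, 139 and 133 CPM in UT and 161, 189 and 178 with CKI at 24 h. That was a rise of 0.45 (SE 0.13, adjusted p = 0.0155). LIMA1 also rose in OO and MOO at 48 h, and by 0.46 to 0.69 in the 4 single removals. In 1 of the 15 comparisons it was called lower, and its lowest value was -0.29.

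SRF mRNA did not pass the test with CKI at either time. It was 194, 180.1 and 187 CPM in UT and 229, 225 and 208 with CKI at 24 h, 187, 199 and 207 against 193, 189 and 186 at 48 h in batch 1, and 192, 178 and 194 against 188, 181 and 186 in batch 2, with the CKI libraries above UT at 24 h and overlapping UT at 48 h in both batches. The CKI changes were 0.25 (SE 0.11, adjusted p = 0.0995) at 24 h and -0.030 (SE 0.037, adjusted p = 0.488) at 48 h over both batches. It passed the test in N_3 at 24 h, at 136, 166 and 128 CPM or -0.38 (SE 0.11, adjusted p = 0.00993), and in the 4 single removals, where it was 132 to 159 CPM and fell by 0.31 to 0.46 on the log2 scale. At 48 h in batch 1 its 5 changes were -0.094 to 0.050, none of them past the threshold. CPM does not measure SRF protein or its activity.

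The mixtures were also compared with CKI itself. In batch 2, where the 4 single removals and CKI were run side by side, N_Mac differed from CKI in 39 members, 13 higher and 26 lower (69.4% of all genes, 35.1% higher and 34.3% lower). N_Nme differed in 40, 15 higher and 25 lower (71.5% of all genes, 35.8% higher and 35.7% lower). N_Omt differed in 39, 16 higher and 23 lower (76.3% of all genes, 37.1% higher and 39.2% lower), and N_Tri in 38, 15 higher and 23 lower (71.4% of all genes, 34.5% higher and 36.9% lower). The 4 comparisons share the CKI libraries. Among those lower than CKI in each were ACTB (-0.46 to -0.25), ACTG1 (-1.27 to -0.78), LASP1 (-1.29 to -0.78), TAGLN2 (-1.2 to -0.49), CNN2 (-1.16 to -0.81), ACTN4 (-1.05 to -0.78), MYL9 (-1.18 to -0.65), TAGLN (-1.17 to -0.69), PDLIM7 (-1.06 to -0.73), MYH9 (-1.02 to -0.85) and SRF (-0.44 to -0.29). Among those higher in each were FHL2 (0.86 to 1.18), MYL12A (0.75 to 1.08), CFL2 (0.38 to 0.93) and LIMA1 (0.45 to 0.68). The member furthest above CKI was CNN1 with N_Mac (3.63, SE 0.47, adjusted p = 4.44e-08), N_Nme (2.75) and N_Tri (3.02), on 7 counts in the 3 CKI libraries, and MYL12A with N_Omt (1.08, SE 0.044, adjusted p = 2.73e-20). The furthest below were ACTG1 with N_Mac (-1.27, SE 0.054, adjusted p = 1.76e-19), TAGLN2 with N_Nme (-1.2, SE 0.070, adjusted p = 4.93e-16), ACTA2 with N_Omt (-1.69, SE 0.24, adjusted p = 1.26e-07) and LASP1 with N_Tri (-1.29, SE 0.053, adjusted p = 7.48e-20). ACTN1 (0.00030 to 0.073) and TPM3 (-0.049 to 0.078) passed in none of the 4.

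N_2, which lacks the oxymatrine and oxysophocarpine pair, lay below CKI for most members at 48 h, with 37 DE, 5 higher and 32 lower (73.1% of all genes, 36.0% higher and 37.1% lower). The furthest were CNN1 (3.17, SE 0.71, adjusted p = 0.00036) above, on 3 counts in the CKI libraries, and ACTA2 (-2.23, SE 0.28, adjusted p = 2.16e-07) below, and ACTG1 differed by -1.55 (SE 0.067, adjusted p = 5.65e-15). At 24 h 26 members differed, 14 higher and 12 lower, where the test called 58.7% of all genes, 29.2% higher and 29.5% lower. Without the 3 libraries that lack a number they were 15 higher and 11 lower (61.7% of all genes called). Without TMM scaling, which moved the median of all genes by -0.35, the split was 10 higher and 22 lower. ACTG1 (-1.50, SE 0.15, adjusted p = 4.91e-07) was lower with N_2 under both, and CNN1 (2.44, SE 0.65, adjusted p = 0.0041) was the furthest above.

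**Figure D3:**
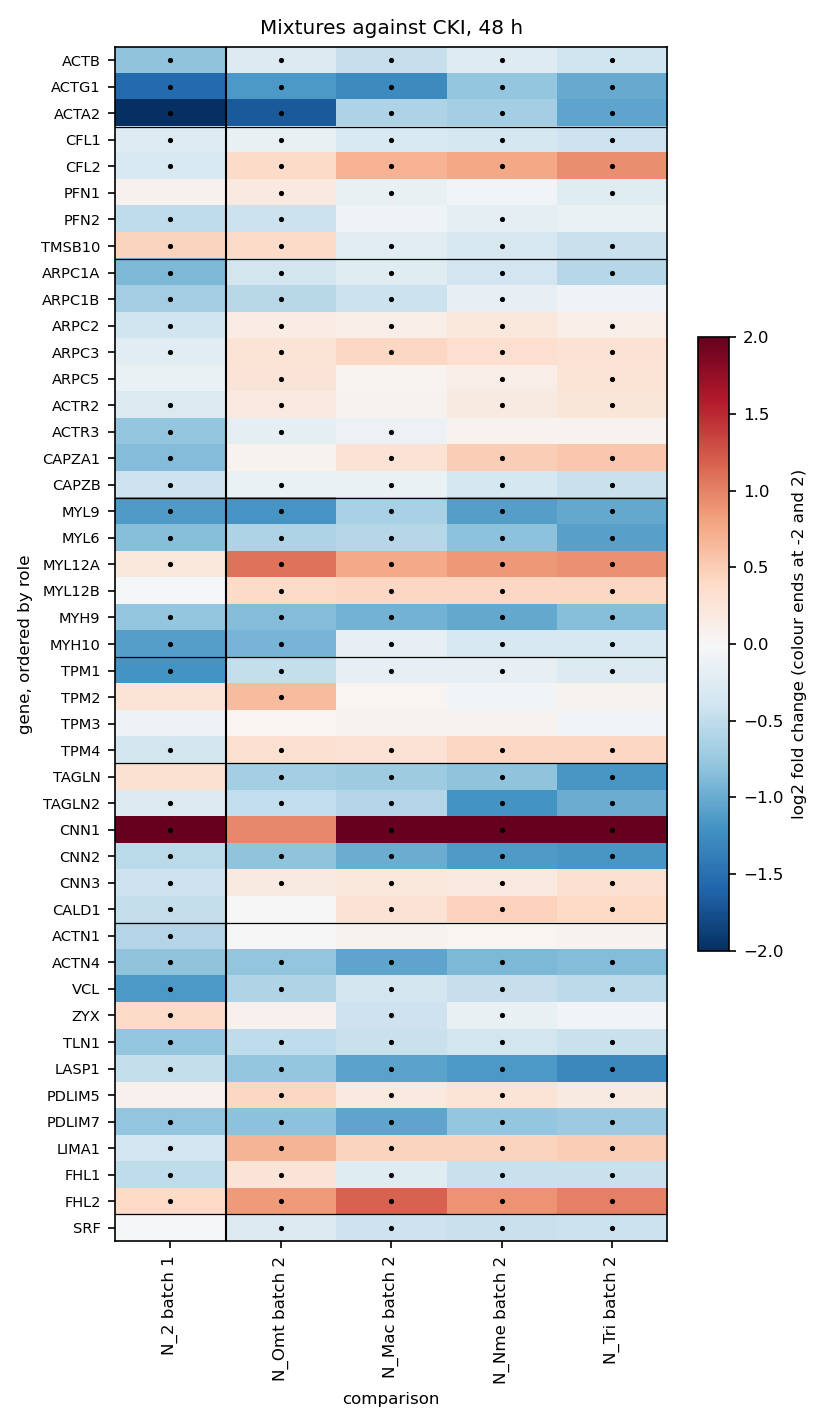
Log2 fold change of each member (rows, by role) against CKI of the same batch after 48 h, for N_2 in batch 1 and the 4 single removals in batch 2 (columns); a dot marks an adjusted p under 0.05. ACTB and ACTG1 are below CKI in all 5 columns, and FHL2 is above CKI in all 5.

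Taking macrozamin out as well (N_3 against N_2) gave higher levels of many members at 48 h. Of 28 DE members 27 were higher in N_3 and 1 lower, where the test called 51.0% of all genes, 25.9% higher and 25.1% lower. The largest was CAPZA1, at 149, 200.2 and 157 CPM in N_3 and 85.9, 85.2 and 80.3 in N_2, or 1.0 (SE 0.086, adjusted p = 4.68e-09). ARPC1B (0.86), ACTA2 (0.81), ACTG1 (0.77) and TLN1 (0.74) followed, and ZYX (-0.20, SE 0.077, adjusted p = 0.038) was the lower one. The calls of ACTA2 and ZYX were lost in 9 and 8 of 13 settings. N_3 replicate 2 held the highest CAPZA1 of its group, and with it left out the N_3 count against UT at 48 h was 33 (4 higher, 29 lower). At 24 h N_3 and N_2 differed in 22 members, 5 higher and 17 lower (47.6% of all genes, 23.8% higher and 23.8% lower), and without TMM scaling in 13 higher and 11 lower. Without the 3 libraries that lack a number these were 25, 6 higher and 19 lower (51.8% of all genes called). TPM2 was furthest above (1.40, SE 0.28, adjusted p = 0.000609) and TAGLN furthest below (-1.59, SE 0.23, adjusted p = 2.71e-05). N_2 replicate 3 stands apart for TPM2, which was at 10.2, 10.7 and 25.9 CPM in the 3 N_2 libraries.

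Adding macrozamin to the pair (MOO against OO) changed few members. At 48 h 3 passed, all higher in MOO, where the test called 1.98% of all genes, 1.46% higher and 0.522% lower. They were ACTG1, at 1956, 2141 and 1993 CPM in MOO and 1472, 1462 and 1426 in OO (0.48, SE 0.065, adjusted p = 0.000228), VCL (0.32, SE 0.077, adjusted p = 0.034) and ACTB (0.31, SE 0.065, adjusted p = 0.0125). The MOO and OO libraries did not overlap for any of the 3. VCL and ACTB lost the call in 7 and 5 of 13 settings, and 1 member passed when any 1 of MOO replicates 2 and 3 or OO replicates 2 and 3 was left out. The count was also 1 with all 54 libraries in 1 fit, 5 in DESeq2, 5 with a 1-count filter and 13 in a fit of these 2 groups alone. At 24 h no member passed in edgeR or in DESeq2, 1 had an unadjusted p under 0.05, and the test called 0.00% of all genes, 0.00% higher and 0.00% lower. OO replicate 1 and MOO replicate 3 at 24 h are the libraries nearest to each other's group. Without the 5 libraries nearest to another group, which leaves OO with 1 library assumed to vary like the others, the share of all genes was 2.73% and still no member passed.

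The CKI effect did not differ detectably between 24 and 48 h in batch 1. No member passed the test of that difference in edgeR or in DESeq2, 6 had an unadjusted p under 0.05, and the test called 0.391% of all genes, 0.177% higher and 0.214% lower. For N_2, 28 members passed, 3 rising and 25 falling from 24 to 48 h relative to UT (34.2% of all genes, 15.5% higher and 18.7% lower). Without TMM scaling, which moved the median of all genes by 0.35, these were 6 and 17. MYL6 in N_2 was 1338, 1314 and 721 CPM at 24 h and 295, 269 and 309 at 48 h, while UT went from 876, 844 and 712 to 649.5, 752 and 717, and the change of effect was -1.75 (SE 0.25, adjusted p = 4.04e-06). MYH10 changed by -1.43 (SE 0.27, adjusted p = 0.000117) and TPM2 by 1.63 (SE 0.42, adjusted p = 0.00292). For MYL6 and TPM2, N_2 replicate 3 at 24 h lies nearer the 48 h libraries than its partners do. Without that library 31 members passed, 3 rising and 28 falling. N_3 had 1 such member (7.35% of all genes, 2.35% higher and 5.00% lower), FHL1, with a change of -1.33 (SE 0.21, adjusted p = 0.000122). There were 3 when N_3 replicate 1 or 2 at 24 h was left out, and 2 without replicate 3 at 24 h or replicate 2 at 48 h. OO had 7, all falling (8.06% of all genes, 3.23% higher and 4.83% lower), led by FHL1 (-0.92, SE 0.21, adjusted p = 0.00533), ACTN4 (-0.80, SE 0.18, adjusted p = 0.00577) and LASP1 (-0.76, SE 0.15, adjusted p = 0.00123). MOO had 2 (2.59% of all genes, 1.02% higher and 1.57% lower), TMSB10 (-0.61, SE 0.17, adjusted p = 0.0418) and LASP1 (-0.55, SE 0.15, adjusted p = 0.0372), and with any 1 of its 12 libraries left out it had 0 or 1. Without the 3 libraries that lack a number these counts were 4 for N_3 (14.2% of all genes), 14 for OO (13.7%) and 8 for MOO (8.63%). Without the 5 nearest to another group they were 6 for N_3 (16.4%) and 9 for MOO (11.7%). OO is not counted there, as it keeps 1 library at 24 h. The share of all genes thus rose with the counts. In UT cells FHL1 rose by 0.83 (SE 0.15, adjusted p = 0.0057) from 24 to 48 h and TPM1 fell by 0.41 (SE 0.10, adjusted p = 0.0395), the 2 members to pass (1.57% of all genes, 0.807% higher and 0.763% lower). TPM1 did not pass with any 1 of the 6 UT libraries left out. The UT count was 8 without the 3 libraries that lack a number (8.38% of all genes) and 11 without the 5 (11.7%).

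**Figure D4:**
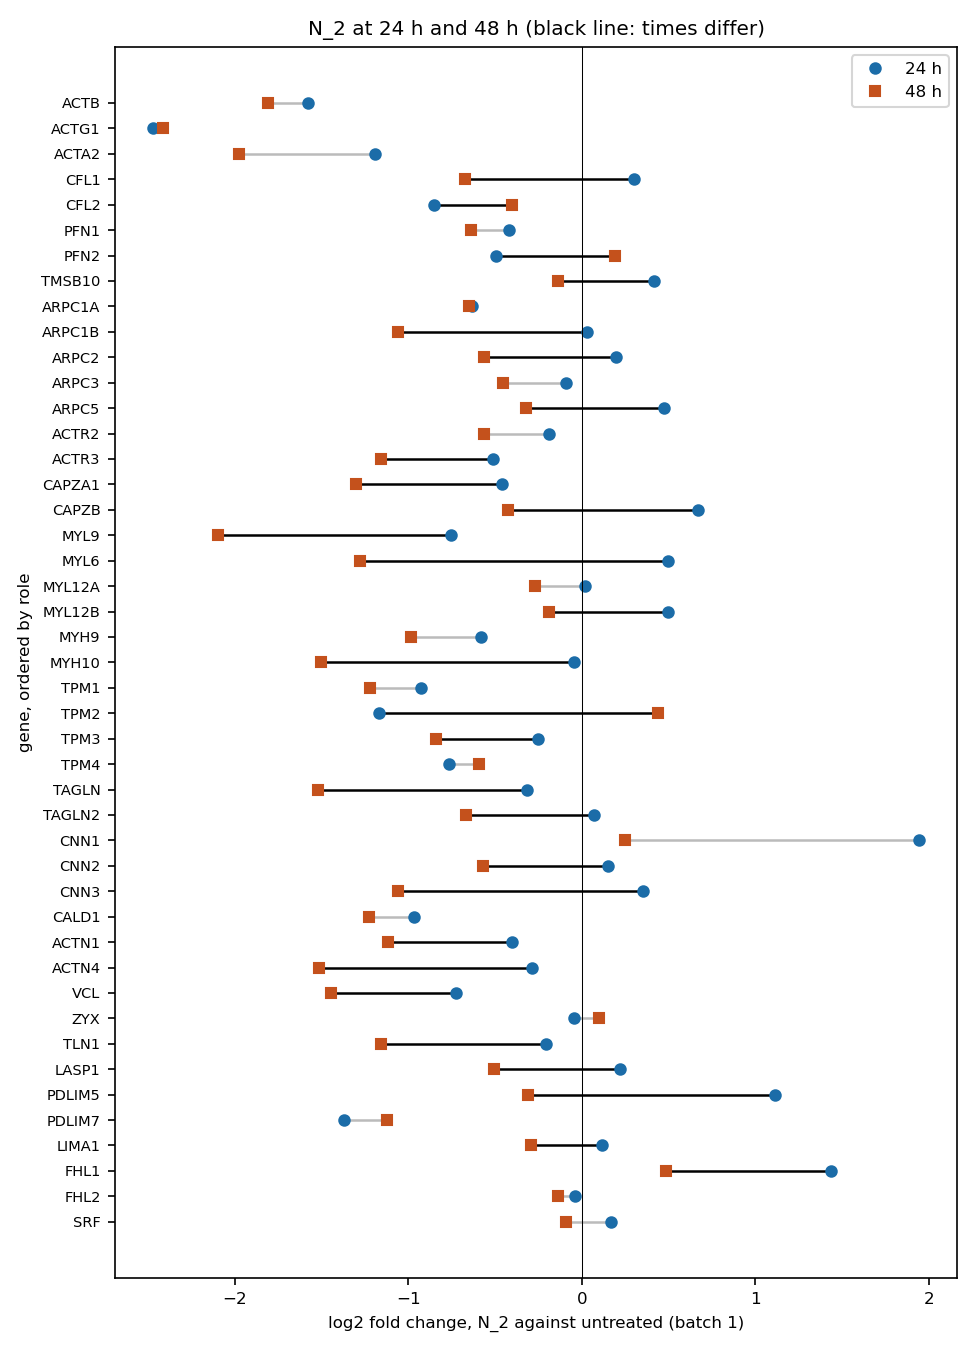
Log2 fold change of each member with N_2 against untreated cells at 24 h and at 48 h in batch 1; a black line joins the 2 values where they differed at an adjusted p under 0.05. MYL6, MYH10, CNN3 and PDLIM5 are lower at 48 h than at 24 h, and TPM2 is higher.

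CKI was given in both batches at 48 h, and its effects there share no library. Over the 45 members the log2 fold changes of the 2 batches had the same sign for 42, with Pearson r = 0.776 and Spearman rho = 0.895, a description across genes, which are not independent replicates. The effect differed between batches for 8 members (3 higher and 5 lower in batch 2), where the test called 8.90% of all genes, 3.89% higher and 5.00% lower. TAGLN fell less in batch 2, by 1.43 (SE 0.20, adjusted p = 6.22e-06), as did MYL9 (0.55, SE 0.14, adjusted p = 0.00715), and FHL2 fell more (-0.41, SE 0.094, adjusted p = 0.00341). The count was 4 without CKI replicate 2 or UT replicate 2 of batch 1, or CKI replicate 3 or UT replicate 1 of batch 2, and 5 without CKI replicate 1 or 3 of batch 1. UT itself differed between batches for 30 members (10 higher, 20 lower in batch 2), where the test called 54.3% of all genes, 29.3% higher and 25.1% lower. CFL2 was furthest above in batch 2 (0.62, SE 0.065, adjusted p = 2.28e-10) and MYL9 furthest below (-1.0, SE 0.097, adjusted p = 4.47e-11). UT TAGLN was also lower in batch 2 (-0.80, SE 0.13, adjusted p = 2.03e-06).

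Ratios of paralogs within a library do not depend on scaling between libraries, and so show unequal change directly. They are log2 ratios of counts with 0.5 added, given as mean ± SD (n = 3) with no test. ACTB over ACTG1 was 0.60 ± 0.025 in UT and 0.46 ± 0.019 with CKI at 48 h in batch 1, the CKI libraries lying below UT, and 0.88 ± 0.012 and 0.84 ± 0.034 in batch 2, where they overlap. In every mixture the libraries lay above UT, by 0.15 to 0.89, so beta-actin made up more of the cytoplasmic actin counts with the mixtures but not with CKI. PFN1 over PFN2 was 5.90 ± 0.15 in batch 2 UT and 4.06 ± 0.057 with CKI, and it lay below UT in all 48 h groups by 0.83 to 1.94. CFL1 over CFL2 and TPM3 over TPM4 were below UT in all 48 h groups too (-1.64 to -0.27 and -0.89 to -0.25), and above UT with N_2 at 24 h (1.16 and 0.51). ACTN1 over ACTN4 was -1.05 ± 0.079 in batch 2 UT, -1.11 ± 0.030 with CKI and 0.015 ± 0.016 with N_Mac, a log2 ratio close to 0 in the last.

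**Figure D5:**
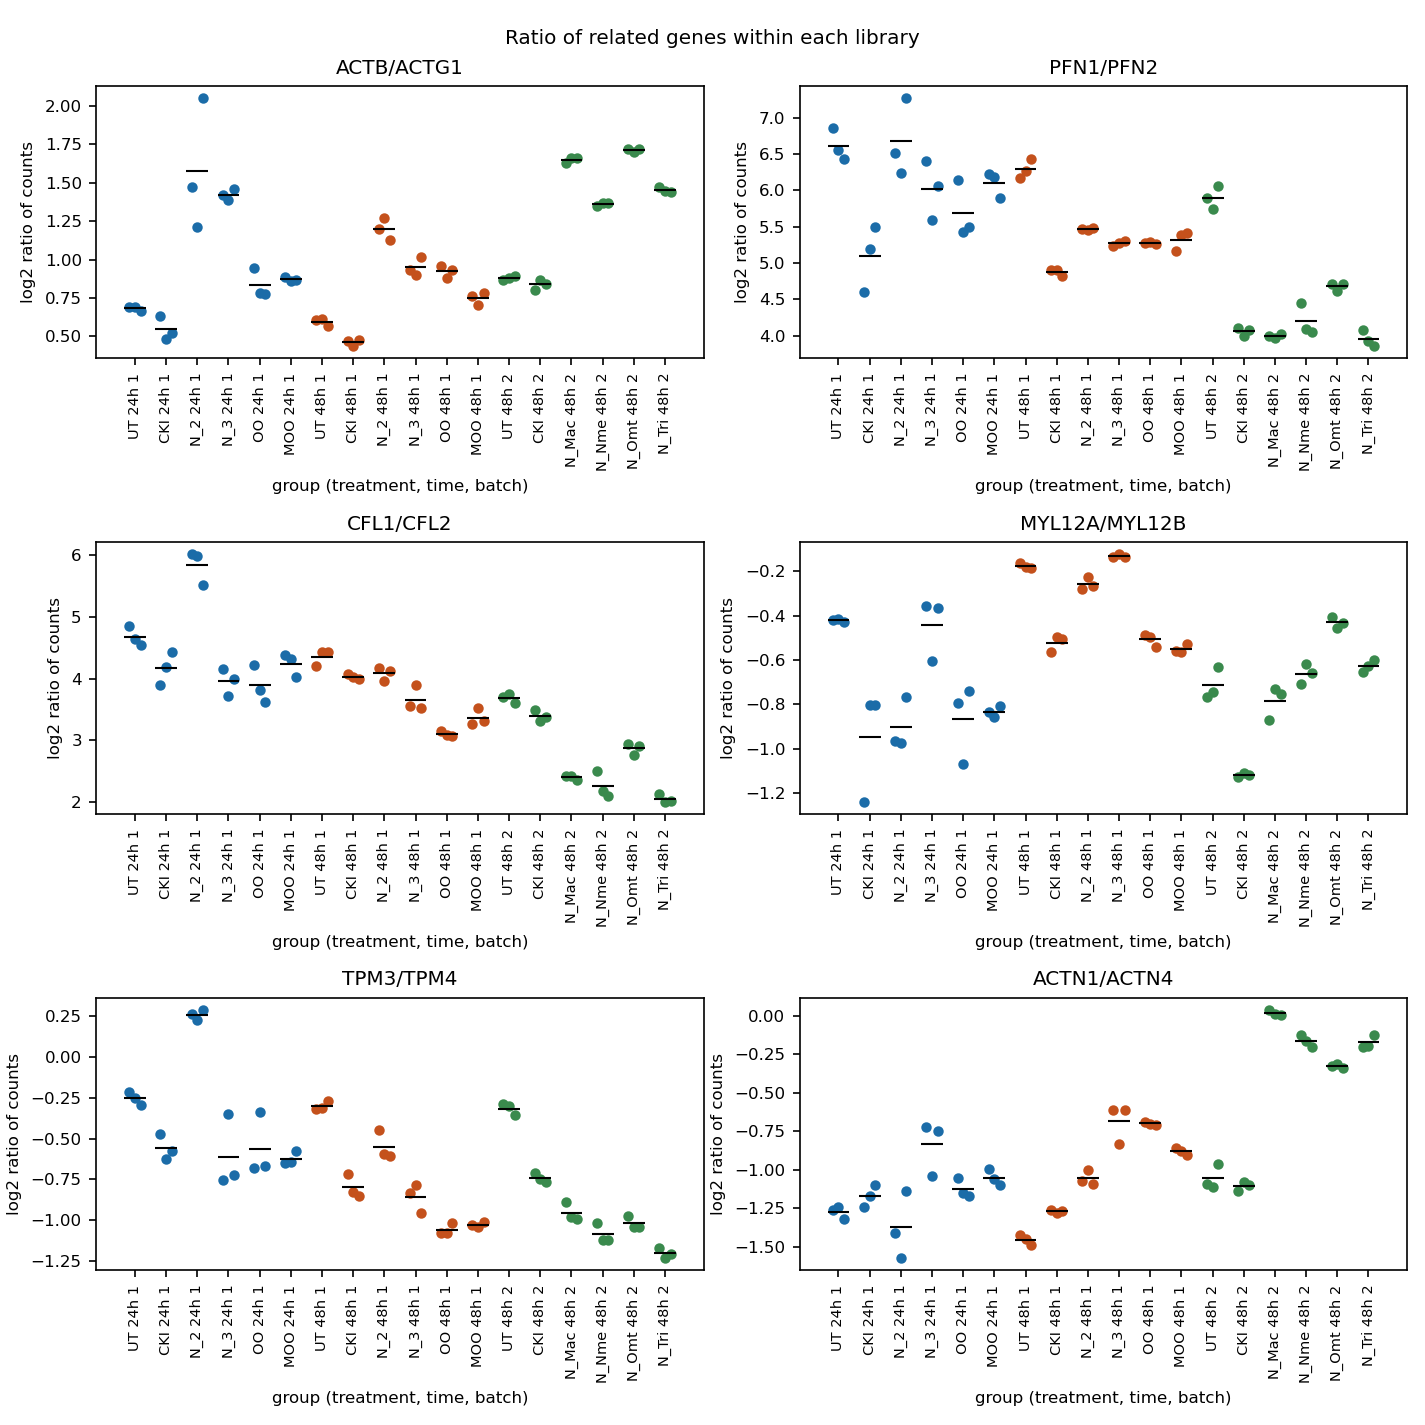
Log2 ratio of counts within each library for 6 paralog pairs, by group; each point is 1 library and the bar is the group mean. ACTB over ACTG1 is higher in the mixtures than in untreated cells, and PFN1 over PFN2 and CFL1 over CFL2 are lower than in untreated cells in all 48 h groups.

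For another 3 pairs CKI and some single removals lay on opposite sides of UT. CNN2 over CNN3 lay above UT with CKI at both times and in both batches (0.48, 0.62 and 0.83) and lay below it with N_Mac, N_Nme and N_Tri (-0.65 to -0.41). MYH9 over MYH10 did the same (0.37, 0.18 and 0.37 against -0.41 to -0.17). MYL12A over MYL12B was below UT with CKI in all 3 settings (-0.53 to -0.35) and above it with N_Omt (0.28). FHL1 over FHL2 lay above UT with CKI by 1.74, 1.55 and 2.26. ARPC1A over ARPC1B was above UT with CKI by 0.46 to 0.62. TAGLN over TAGLN2 lay below UT with CKI by 1.01, 1.46 and 0.31. With N_2, PDLIM5 over PDLIM7 was above UT by 2.5 at 24 h and 0.81 at 48 h, and TPM1 over TPM2 was below it by 1.64 at 48 h.

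Beyond the members, 60 other genes of actin regulation were counted (57 or 58 tested). At 24 h the shares called were below those of all genes in each treatment, with 6 higher and 8 lower for CKI (30.0% of all genes called) and 19 and 9 for N_2 (62.1%), 8 and 11 for N_3 (45.0%), 6 and 2 for OO (16.7%) and 1 and 0 for MOO (10.5%). At 48 h in batch 1 N_2 gave 11 and 32 (76.6% of all genes called) and N_3 18 and 19 (71.1%), again below the share of all genes, while OO gave 14 and 21 (57.8%) and MOO 11 and 18 (51.2%), both close to it. CKI gave 10 and 26 in batch 1, where 27.0% of all genes were higher and 27.0% lower, and 14 and 31 in batch 2, where 32.3% were higher and 34.2% lower. The single removals gave 16 and 28 with N_Mac (72.4% of all genes called), 19 and 27 with N_Nme (71.3%), 22 and 24 with N_Omt (78.2%) and 21 and 29 with N_Tri (72.2%). RHOB, a small GTPase of endosomes and stress fibres, rose with CKI at 24 h (0.96, SE 0.25, adjusted p = 0.00847) and over both batches at 48 h (1.04, SE 0.099, adjusted p = 4.29e-08). GSN, the filament-severing gelsolin, rose with CKI at 48 h (0.65, SE 0.055, adjusted p = 1e-08). Falling furthest with CKI at 48 h were CAP2, a cyclase-associated actin binder (-1.28, SE 0.057, adjusted p = 2.53e-12), and DIAPH3, a formin that elongates filaments (-1.04, SE 0.079, adjusted p = 2.7e-09). DIAPH3 fell by 4.46 (SE 0.079, adjusted p = 9.17e-30) with N_Omt on the log2 scale. In N_3 at 48 h its mean was 7.94 CPM, against 72.7 in UT. The SRF coactivator gene MKL2 fell with N_2 at 24 h (-2.26, SE 0.29, adjusted p = 4.84e-06) and with N_Omt (-1.63, SE 0.10, adjusted p = 2.58e-15). Its mean in N_3 was 4.36 CPM at 24 h and 3.30 at 48 h, against 10.7 and 12.7 in UT. With CKI at 24 h neither MKL1 (0.20, adjusted p = 0.17) nor MKL2 (-0.30, adjusted p = 0.407) passed the test.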

How the data were processed

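MDA-MB-231 RNA was sequenced from 54 libraries, 18 groups of 3. Per the submitters' processing notes, the authors trimmed reads with Trim Galore 0.3.7 after FastQC 0.11.4, aligned them to hg19 with STAR 2.5.3a and assigned them to genes with featureCounts of Subread 1.5.2. They deposited raw counts per gene, not normalised, with paralog reads split as that counting did. Whether strand was used in counting is not given in the sources used here. Groups were taken from the sample labels. Totals of 17673537 to 26138924 counts set the counting precision, and exact 95% intervals cover counting error only.

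Counts were filtered with filterByExpr, TMM-scaled and tested with the edgeR 4.0.16 quasi-likelihood test in R 4.3.3, with Benjamini-Hochberg adjustment over all genes tested and a threshold of 0.05, two-sided. One fit was made for each time and batch (18 libraries each). The CKI comparison over both batches used 12 libraries with batch as a term, and effects were compared across times or batches in fits of 36 libraries. CPM is per TMM-scaled library size. Paralog ratios were taken after adding 0.5 counts. Levels per kilobase used GENCODE exon lengths, and promoters came from RefSeq (GRCh38.p14). Figures used matplotlib 3.10.9. Data were simulated for CKI against UT at 48 h in batch 1 (15513 genes). The test recovered 61.5% of 96 genes changed by 0.5 and 85.3% of 95 changed by 1 on the log2 scale, and 6.04% of its calls were false. Only a small part of the genes was changed there, as many raised as lowered, whereas the real comparison called 54.0% of genes. The simulation therefore does not check scaling or error rate under such broad change. No 2 of the 54 within-group pairs agreed within sampling noise (chi-square per gene 1.97 to 131), so all libraries were counted.

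The members and gene lists were chosen with earlier results of these data known. Described by rule were the actins and SRF, the called members with the 5 largest rises and falls with CKI, those with the largest change in other comparisons, and a pair of leading regulators per direction. Others are given by range as examples of their role. Alternatives were DESeq2 1.42.0 size factors and Wald test, library sizes alone, a 1-count filter, other sets of libraries in the fit, a replicate block, leaving out each library, and, chosen after seeing the data, leaving out libraries nearest to another group.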

Additional observations from a re-analysis of the deposited data

Results flagged for a closer look

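These differences between 2 times or between 2 batches passed the test of the difference itself (edgeR, adjusted over all genes tested). The CKI effect at 48 h in batch 2 minus batch 1 was 1.43 for TAGLN, 0.553 for MYL9 and -0.411 for FHL2 on the log2 scale. UT levels of TAGLN and MYL9 also differed between batches, and the part of that in the result was not tested. From 24 to 48 h the N_2 effect moved by -1.75 for MYL6, -1.43 for MYH10 and 1.63 for TPM2, and N_2 replicate 3 at 24 h stood apart from its partners for MYL6 and TPM2. The N_3 effect on FHL1 moved by -1.33 over that time. The OO effect moved by -0.924 for FHL1, -0.799 for ACTN4 and -0.759 for LASP1. For FHL1, UT itself rose between the times. The MOO effect moved by -0.606 for TMSB10 and -0.554 for LASP1, calls that were lost in 10 and 14 of 21 alternative settings.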

How the results depend on the processing

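At 48 h the counts of DE members against UT stayed within 1.5 times under every alternative, and most 24 h and time comparisons of OO, MOO and N_3 did not. With all 54 libraries in 1 fit, OO at 24 h gave 20 members, MOO at 24 h 16, the batch difference of CKI 1, the change with time 5 for N_3, 15 for OO, 6 for MOO and 8 for UT, and MOO against OO at 48 h 1. Without the 3 libraries that lack a number, MOO at 24 h gave 13 (20.2% of all genes). The change with time then gave 4 for N_3 (14.2%), 14 for OO (13.7%), 8 for MOO (8.63%) and 8 for UT (8.38%). Without the 5 libraries nearest to another group MOO at 24 h gave 8 (18% of all genes). The change with time then gave 6 for N_3 (16.4%), 9 for MOO (11.7%) and 11 for UT (11.7%). OO at 24 h was then 1 library, so its counts are not given. Fitting only the 2 groups compared gave 19 for MOO at 24 h and 13 for MOO against OO at 48 h. Without the OO and MOO libraries nearest to each other's group MOO at 24 h gave 2 (7.11% of all genes). DESeq2 gave changes with time of 4 for N_3, 12 for OO, 4 for MOO and 5 for UT, and 5 for MOO against OO at 48 h. A 1-count filter gave 5 for the CKI batch difference, 2, 0 and 1 for the changes of N_3, MOO and UT with time, and 5 for MOO against OO at 48 h. Library sizes alone gave 3 for N_3 and 0 for MOO with time, and turned the members' median from 0.165 to -0.202 for N_2 against CKI at 24 h and from -0.236 to 0.0965 for N_3 against N_2 at 24 h. In all of these the cause was not tested. For the other settings here and below, the share of all genes called is not given. Their counts show dependence on processing and say nothing about the members alone.

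Leaving out 1 library at a time gave 13 to 19 members for CKI at 24 h, 2 to 3 for MOO at 24 h, 7 to 12 for OO at 24 h, 4 to 7 for the CKI batch difference, 1 to 3 for N_3, 6 to 10 for OO and 0 to 1 for MOO with time, 1 to 2 for MOO against OO at 48 h, and 1 in every case for UT with time. Of the correlations of same-numbered libraries, 17 of 45 were over 0.1 at 24 h (median -0.0439, highest 0.694). At 48 h these were 6 of 45 in batch 1 (median -0.0195) and 3 of 45 in batch 2 (median 0.013). At 24 h some running numbers differ from the replicate number, so these correlations cannot exclude pairing there. With the replicate block the counts were 20 for CKI at 24 h, 24 for N_2 at 24 h, 3 for MOO at 24 h, 36 for CKI at 48 h over both batches and 7 for its batch difference, all within 1.5 times. No block could be fitted for UT across times or batches.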
